A study of Mus musculus with 4 samples.

Results

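Stretches of open chromatin that were called in wild-type G1ER cells and in no library of their Chd7-/- counterpart are described here. They were found by merging every overlapping peak of the 4 deposited ATAC-seq lists on chromosomes 1 to 19 and X into regions, and by keeping regions with a peak in both wild-type lists and in neither knockout list. This gave 345 wild-type-only regions of 15313 (2.25%), of which 137 lay at a gene edge, that is within 1 kb of either end of a protein-coding gene, and 208 were distal. ATAC-seq marks open chromatin by letting a transposase insert adapters where DNA is not wrapped tightly. The samples were 2 libraries of Chd7-/- G1ER cells and 2 of wild-type G1ER cells, each from 50000 cells, with 1 library of each genotype labelled 1 h and the other 2 h. No treatment was given, and all cells were kept in medium with erythropoietin and stem cell factor.

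G1ER is a mouse erythroblast line that descends from Gata1-null cells and carries GATA1 fused to a hormone-binding domain of the estrogen receptor, a background that both genotypes share. The 2 knockout libraries share 1 code in their descriptions, and the loss of Chd7 cannot be told apart from anything else that code may mark, such as a single clone. Nothing in the labels says that the libraries of a genotype came from separate cultures, and their spread may be technical. The lists held 12431 and 11361 peaks in knockout and 11074 and 12033 in wild type at 1 h and 2 h, and total reads are unknown. The labels give erythroblasts as the source. Of the erythroblast marker genes, Epor, Tfrc and Nfe2 had a gene-edge region called in all libraries, and Gata1, Klf1, Slc4a1, Alas2, Hba-a1 and Hbb-bt had none in any library. None of 7 granulocyte and macrophage, 5 mast cell, 7 lymphoid and 3 fibroblast markers had one in all 4 libraries, and 1 of 6 megakaryocyte markers, Gp9, did.

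CHD7 is a chromodomain helicase that uses ATP to move nucleosomes, and it is known for binding enhancers and promoters during development. Open regions at gene starts hold the general promoter machinery and are open in most cell types. Distal open regions include enhancers, which often differ between cell types and in red cell precursors are commonly bound by GATA and RUNX factors and their partners. A region is linked below to the nearest gene by position alone, which does not show that it controls that gene. Distances to a gene end are given from the middle of a region. The limits for gene edges and starts and the gaps between regions run from region edges.

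Sequences are shown for promoters that wild-type-only regions covered, since there the region and the annotated start coincide. Of the 137 gene-edge members, 92 lay within 1 kb of an annotated transcription start, 9 lay at a 3′ end with no start near, and for 36 the start was not known from the promoter table. The first 5 sequences belong to the strongest gene-edge members among those that covered at least 240 of the 300 bases around a start. Those of Cyba, Epb42 and Tesmin were added after their letters were seen, because they hold GATA or RUNX words. Each run gives the 250 bases before the start, 5′ to 3′ on the gene's strand, from RefSeq on GRCm38.p6, and capitals mark letters that match a searched motif on either strand. GATA factors were searched by the word AGATAA or, with another first letter, by TGATAA. RUNX factors were searched by TGTGGT or, with C in place of its second T, by TGCGGT. ETS factors were searched by CCGGAA and the GC box by GGGCGG. The CCAAT box is named by its letters, and the cyclic AMP element was searched by TGACGT. The E-box was searched by CACGTG and AP-1 by TGANTCA. Erythroid KLF factors were searched by CCACACCC, the TATA box by TATAAA, and NRF1 by its palindrome. The positions are Iqcc, chr4:129619094-129619343, minus strand; Cdca7, chr2:72475969-72476218, plus strand; Metrn, chr17:25797046-25797295, minus strand; Naglu, chr11:101069844-101070093, plus strand. The others are Ypel2, chr11:86993763-86994012, minus strand; Cyba, chr8:122432941-122433190, minus strand; Epb42, chr2:121036878-121037127, minus strand; Tesmin, chr19:3388607-3388856, plus strand.
Iqcc: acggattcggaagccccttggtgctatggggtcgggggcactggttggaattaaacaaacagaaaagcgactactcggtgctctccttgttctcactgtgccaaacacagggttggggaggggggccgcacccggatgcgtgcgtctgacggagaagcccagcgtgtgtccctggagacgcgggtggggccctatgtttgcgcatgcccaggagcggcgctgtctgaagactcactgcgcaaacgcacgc
Cdca7: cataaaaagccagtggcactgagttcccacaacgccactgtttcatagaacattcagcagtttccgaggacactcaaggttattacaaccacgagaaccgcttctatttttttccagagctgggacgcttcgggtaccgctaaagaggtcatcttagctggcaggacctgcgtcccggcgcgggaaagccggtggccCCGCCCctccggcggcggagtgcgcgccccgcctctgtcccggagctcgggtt
Metrn: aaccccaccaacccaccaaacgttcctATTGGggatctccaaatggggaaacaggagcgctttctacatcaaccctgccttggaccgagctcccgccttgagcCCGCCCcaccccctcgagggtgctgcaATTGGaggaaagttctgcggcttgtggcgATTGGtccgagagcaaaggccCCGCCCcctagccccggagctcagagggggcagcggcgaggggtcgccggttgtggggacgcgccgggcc
Naglu: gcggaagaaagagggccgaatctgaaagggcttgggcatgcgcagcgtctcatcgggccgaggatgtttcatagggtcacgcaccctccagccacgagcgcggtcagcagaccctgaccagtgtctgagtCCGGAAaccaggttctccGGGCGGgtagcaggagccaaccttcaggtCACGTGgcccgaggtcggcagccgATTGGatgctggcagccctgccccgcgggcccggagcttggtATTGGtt
Ypel2: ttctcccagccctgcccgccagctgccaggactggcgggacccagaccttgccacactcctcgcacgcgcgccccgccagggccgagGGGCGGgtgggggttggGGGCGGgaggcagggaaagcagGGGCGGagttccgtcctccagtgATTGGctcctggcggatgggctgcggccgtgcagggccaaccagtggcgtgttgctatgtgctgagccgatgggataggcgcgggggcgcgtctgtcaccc
Cyba: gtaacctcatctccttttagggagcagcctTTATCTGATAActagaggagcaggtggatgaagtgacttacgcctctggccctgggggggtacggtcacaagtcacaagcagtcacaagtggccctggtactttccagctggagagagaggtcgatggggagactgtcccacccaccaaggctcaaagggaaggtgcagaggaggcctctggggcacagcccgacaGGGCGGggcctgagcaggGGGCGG
Epb42: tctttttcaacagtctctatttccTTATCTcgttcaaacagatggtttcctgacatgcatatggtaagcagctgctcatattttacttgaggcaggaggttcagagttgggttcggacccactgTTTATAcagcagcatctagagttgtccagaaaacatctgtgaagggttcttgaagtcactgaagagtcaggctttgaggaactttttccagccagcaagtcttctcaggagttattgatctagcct
Tesmin: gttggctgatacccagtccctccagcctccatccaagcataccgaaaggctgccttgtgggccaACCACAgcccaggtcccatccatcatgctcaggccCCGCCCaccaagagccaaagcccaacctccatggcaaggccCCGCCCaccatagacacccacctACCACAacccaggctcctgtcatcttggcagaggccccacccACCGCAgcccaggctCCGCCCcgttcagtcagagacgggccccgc

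The Iqcc stretch holds none of the 11 motifs, whereas that of Naglu holds an ETS word, a GC box, an E-box and 2 CCAAT boxes. Ypel2 has 3 GC boxes and 1 CCAAT box, and Metrn 2 and 3. Cyba carries 2 overlapping GATA words on opposite strands, Epb42 has 1 GATA word and 1 TATA word, and Tesmin has 3 RUNX words. Over all covered promoters, 93 windows of 300 bases (250 before to 50 after a start) overlapped a member, 18 of them whole, and these belonged to 78 gene-edge and 13 distal members. Their median GC content was 60.3%, against 58.7% in the 55 windows overlapped by knockout-only regions, 63.0% in 5772 windows overlapped by regions called in all 4 libraries and 56.7% in all 17273.

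GATA words stood in 12 of the 93 windows (12.9%, 95% exact interval 6.85 to 21.5), against 10.9% of windows under knockout-only regions, 7.57% under regions called in all 4 libraries and 16.0% of all promoters. RUNX words stood in 11 of 93 (11.8%, 6.05 to 20.2), against 21.8% (11.8 to 35.0), 21.1% and 21.5% in the same 3 sets. ETS words were in 33.3% (23.9 to 43.9) of the members' windows, against 25.5% under knockout-only regions, 37.8% in the all-4 set and 19.7% of all promoters. GC boxes were in 64.5%, against 61.8%, 74.7% and 47.6% in that order. AP-1 words were in 9.68% (4.52 to 17.6), against 5.45%, 3.22% and 6.98%. CCAAT boxes were in 30.1% (21.0 to 40.5), against 40.0%, 43.4% and 39.4%, and the cyclic AMP word in 4.30% (1.18 to 10.6), against 7.27%, 15.8% and 8.74%. For RUNX, AP-1, CCAAT, the cyclic AMP word and the GC box (53.9 to 74.2) the members' interval did not hold the share of regions called in all 4 libraries, and for GATA and ETS it did. Regions called in 1 library of each genotype, which like the members had calls in 2 of the 4 libraries, covered 225 windows. There the RUNX share was 18.2% (13.4 to 23.9), the CCAAT share 36.9% and the GC box share 63.1%, each inside the members' interval. Their shares of 4% for AP-1 (1.85 to 7.46) and 12% for the cyclic AMP word (8.06 to 17.0) lay outside it, although the intervals overlapped. The intervals cover counting of windows only, genes sharing a window count once each, 11 motifs were searched without a test, and a match is a run of letters and not a shown binding site.

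**Figure D1:**
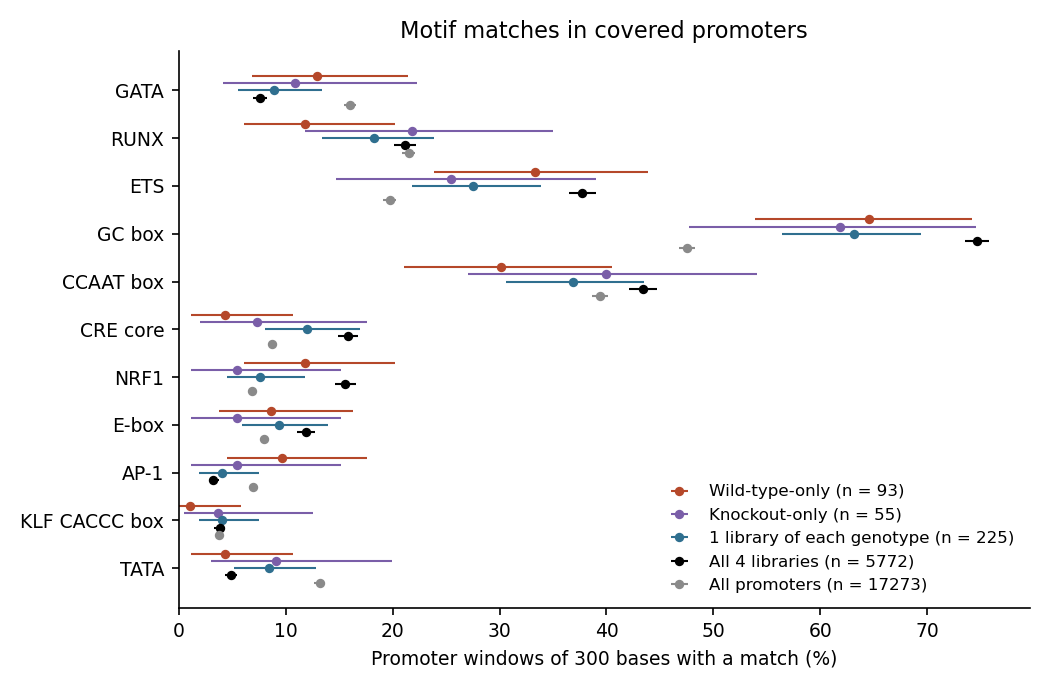
Share of 300-base promoter windows (horizontal axis, %) with at least 1 match to each motif, for windows overlapped by wild-type-only regions (red), knockout-only regions (purple), regions called in 1 library of each genotype (blue), regions called in all 4 libraries (black) and for all promoters (grey); lines are 95% exact intervals. The RUNX share of wild-type-only windows was 11.8% (6.05 to 20.2), and that of windows under regions of 1 library of each genotype, 18.2%, lies inside this interval.

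Most members were weak peaks in the libraries that defined them. They were chosen by the peak calls of these lists, so their fold enrichment, q and pileup there are a description, and the lists hold no level for a region without a call. The number of sequenced fragments stacked at the summit, called the pileup, had a median of 11 in the 1 h wild-type library (range 6 to 29) and of 14 in the 2 h one (8 to 32). The authors' fold enrichment over local background had a median of 5.56 at 1 h and 5.37 at 2 h, against medians of 9.20 and 9.30 for regions called in all 4 libraries. When regions were ranked by fold enrichment within each wild-type library and the lower of the ranks was kept, the median member stood at percentile 10.5. Only 2 members ranked above the middle of both lists, and 51 ranked above percentile 25 in both. Of the regions in the weakest 25% of the wild-type 1 h list 9.45% were members, and of those in the strongest 25% the share was 0.0361%. In the 2 h list the shares were 8.09% and 0%.

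The rule puts peaks of both wild-type libraries into 1 merged region, so a small gap between their summits is largely set by it and only described here. The median gap between the summits was 48 bp, and 264 of 345 (76.5%) were within 100 bp, at a median member width of 341 bp. Fold enrichment was higher at 1 h than at 2 h in 176 members (51.0%). Gene-edge members were slightly stronger than distal ones, with a median lower percentile of 12.4 (95% order-statistic interval 10.3 to 16.1) against 9.18 (7.70 to 11.5), and the intervals overlap.

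**Figure D2:**
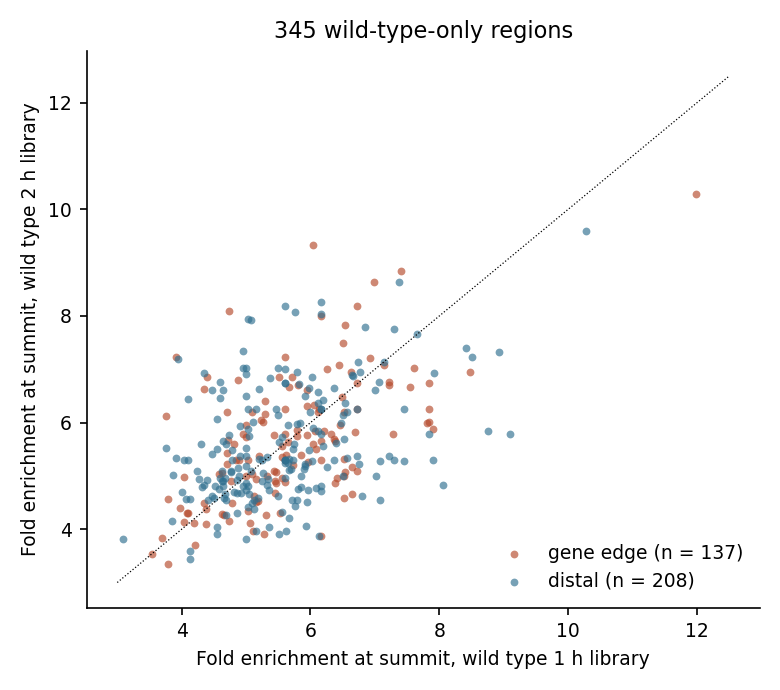
The authors' fold enrichment at the summit of each wild-type-only region in the wild-type 1 h library (horizontal axis) and the wild-type 2 h library (vertical axis), for gene-edge (red, n = 137) and distal (blue, n = 208) members; the dotted line marks equal values. The regions at Erich1 (11.98 and 10.3) and near Trim43c (10.3 and 9.59) lie apart at the upper right.

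The class has a soft border. The member with the lowest −log10 q, the authors' significance score per peak, lay at Ccnj, a cyclin gene, with 1.97 at 1 h and 8.97 at 2 h. Next came a region near LOC115485924 with 2.03 and 6.64 and a region on chromosome 1 (143319617 to 143319924) with 2.22 and 3.89. Just outside were regions called in both wild-type libraries and in the 1 h knockout library with a low score. That at Dda1 had 1.32 in the knockout library against 5.38 and 4.73 in wild type, that near Idh2 had 1.73 against 5.03 and 5.65, and that near Gm40469 had 1.83 against 4.42 and 6.53. In all, 816 regions were called in both wild-type and 1 knockout library, 39 of them with a knockout −log10 q below 3. Of the members, 28 had a lower wild-type score below 3, 158 reached 5 in both libraries and 4 reached 10 in both. With a library dropped the rule asks for fewer calls or absences, and the class grew to 893 and 618 regions without the knockout 1 h and 2 h libraries, and to 1235 and 883 without the wild-type 1 h and 2 h libraries. Under the 5 other settings tried, 144 members stayed in the class in each, 65 at gene edges and 79 distal.

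Gene-edge members. The strongest 12 carried genes of varied function. The first had its middle 36 bp from an end of Erich1 (chromosome 8, 14090080 to 14090668), with no peak in either knockout library against pileups of 28 and 27 fragments in the wild-type 1 h and 2 h libraries. The nearest peak of a knockout library was 182.0 kb away. Cdca7, which encodes an activator of the remodeller HELLS and is induced in dividing cells, had a member over its start (chromosome 2, 72476014 to 72476349) with 18 and 15 fragments. The middle of this member lay 6 bp from that end of the gene, and the nearest region called in all libraries was 502.6 kb away. Med15, a subunit of the Mediator complex that links activators to RNA polymerase, had 12 and 18 fragments at its start (chromosome 16, 17722705 to 17723042). These pileups are at or below the median summit of a wild-type library, 19 and 22 fragments, except at Erich1.

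Nckap1l, also called Hem1, the blood-cell form of a subunit of the actin-regulating WAVE complex, had 13 fragments in each wild-type library (chromosome 15, 103453563 to 103453823). The middle of this member lay 90 bp from a gene end. Naglu, a lysosomal enzyme that degrades heparan sulphate, had 13 and 14 at the promoter shown above (chromosome 11, 101069798 to 101070248). Rap1a, a small GTPase of cell adhesion, had 15 in each (chromosome 3, 105800831 to 105801488). Hus1, part of the clamp that senses damaged DNA, had 11 and 16 at its start, at the same lower percentile as Ypel2 with 11 and 13. Members at Iqcc and Ccdc28b (15 and 19), Ttc25, a docking protein of ciliary outer dynein arms (13 and 15), Tmem35b (14 and 15), Pop1, a subunit of RNase P, with Rida (13 and 14), and Metrn, a secreted neurotrophic protein (13 and 15), completed the group. In each of these the 2 wild-type libraries differed by at most 6 fragments.

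Further gene-edge members lay at genes known from red and other blood cells. Of these, Cyba, Nrros, Rgs1 and Rac2 are on none of the gene lists and are named here by function after their values were seen. No count over all regions can be set beside them. The list of red cell membrane and skeleton genes had 2 members, at Epb42 and Add2, 0.580% of the class against 0.366% of all regions. Epb42, protein 4.2 of the red cell membrane skeleton, had 9 and 12 fragments over the whole promoter window (chromosome 2, 121036718 to 121037250). Cyba, the p22 subunit of the phagocyte NADPH oxidase, shared a member with the sterol-pathway enzyme gene Mvd (chromosome 8, 122432571 to 122433449; 19 and 20 fragments). Nrros, a regulator of reactive oxygen in phagocytes, had 12 and 14, Rgs1, a brake on G-protein signalling in lymphocytes, 13 and 12, and Rac2, a small GTPase of blood cells, 11 and 19. Junb (16 and 20, beyond the 3′ end) and Cebpb (13 and 15, at the start), both leucine-zipper transcription factors, and Spred2, an inhibitor of Ras signalling (15 in each), ranked lowest of these. The calls at Epb42, Rac2, Cebpb, Junb and Spred2 did not reach a −log10 q of 5 in both wild-type libraries.

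Other gene-edge members lay at genes of general cell functions. Those outside the gene lists are named by hand after their values were seen, so no count over all regions can be set beside them. Atrx is on a list of chromatin remodellers and histone modifiers. That list had 2 members, 0.580% of the class, close to its 0.562% of all regions. The ribosomal protein genes are on lists whose shares follow below. In transcription and chromatin these were Atrx, a remodeller of repeat-rich chromatin (9 and 10), Ino80e with Hirip3 (11 and 14), Cited2, a partner of the coactivators CBP and p300 (20 and 27), and Phf12 (22 in each). Ubr1, Ube2g1, Rnf130 and the cochaperone gene Bag2 act in ubiquitin handling and protein folding. The helicase gene Ddx21 (11 and 12) and the tRNA splicing gene Tsen34 (27 and 21) act in RNA processing. Mitochondrial proteins are encoded by the ribosomal genes Mrps25, Mrpl3, Mrps31 and Mrpl41 and by the protease gene Lonp1, in a member shared with Rpl36. Zbtb6 and Zbtb26 shared a member, Xpa acts in nucleotide excision repair, and Anapc7 belongs to the anaphase-promoting complex. Histone genes had a member between H3c8 and H2ac10 (16 and 23) and one at H2ac18 (17 and 18).

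By name, mitochondrial ribosomal genes were linked to 1.45% of members, against 0.627% of all regions, and Zfp genes to 3.19% against 2.71%. Slc genes were linked to 1.16% against 2.01%, genes with a clone name to 3.19% against 4.47%, cytosolic ribosomal genes to 0.290% against 0.581% and ubiquitin-specific proteases to 0 members against 0.431% of all regions. A gene-edge member covered the ends of 2 or more genes in 23 of 137 cases (16.8%). For 30 of 137 (21.9%) the same gene also had another edge region that was called in all 4 libraries, against 15 of 81 gene-edge regions called in knockout only (18.5%) and 46 of 287 called in 1 library of each genotype (16.0%). In the remaining 107 the member was the gene's edge region without a companion called throughout.

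Distal members. Of the 208, 112 had their middle inside a protein-coding gene, 192 had a gene end within 100 kb, and they lay a median of 14.2 kb from one. In 24 the region lay within 1 kb of an annotated start inside the gene's span, as at Ldb1, Kmt2d, E2f3 and Tsc22d1. The strongest lay 10.8 kb from Trim43c, a tripartite motif gene (chromosome 9, 88858713 to 88859263), with no peak in either knockout library against 21 and 27 fragments in the wild-type 1 h and 2 h libraries. Ets2, an ETS-family transcription factor gene, had a member 8.03 kb away with 14 and 18 (chromosome 16, 95728811 to 95729345). Inside Wipi1, whose product binds the forming autophagosome, the member had 29 and 28, among the tallest of the class (chromosome 11, 109587674 to 109588202). Each of these stayed a member under all 5 settings.

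The next distal members lay near Fcgr3, an Fc receptor of myeloid cells (15 and 14 fragments, 22.8 kb), inside Lmnb1, the gene of lamin B1 (13 and 18), near Zfp608 (13 and 17), near Phactr4, a regulator of protein phosphatase 1 and actin (13 and 18), and near Tsc22d4 (18 and 17). Six4, a homeobox gene (13 and 17), Frs2, an adaptor of FGF receptors (12 and 16), Sgk3, a kinase downstream of PI3K (12 and 14), and Oat, ornithine aminotransferase (13 in each), followed. Far from any gene end, the strongest were a region inside Esr1, the estrogen receptor gene, 175.2 kb from its nearest end (15 in each; chromosome 10, 4787032 to 4787380), and a region 777.6 kb from the nearest gene end (13 and 15; chromosome 5, 133320653 to 133320969).

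Cytokine signalling genes were linked to 6 members, 1.74% of the class against 0.483% of all regions and 0.482% of knockout-only regions, and 5 of the 6 were distal. This list, like the other gene lists given here, was chosen with earlier results of these libraries known. Spry1, an inhibitor of receptor tyrosine kinase signalling, had 10 and 12 fragments 15.1 kb away, with a peak of a knockout library 5.38 kb off. Jak2, the kinase bound by the erythropoietin receptor, had 14 and 10 at 14.6 kb. Pim1, a survival kinase, had 12 and 14 at 52.2 kb, and there a knockout peak lay 0.816 kb from the member. Inside Ptpn6, the phosphatase SHP-1 that dampens erythropoietin signalling, the member had 11 and 9, and near Cish, a STAT5-induced inhibitor, 8 and 9. The members at Jak2, Ptpn6, Cish and Spred2 fell out when both wild-type libraries had to reach a −log10 q of 5, and those near Spry1 and Pim1 stayed.

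Genes for haematopoietic transcription factors and cofactors were likewise linked to 6 members, 1.74% against 0.908% of all regions. Besides Ets2, Junb and Cebpb these were a region inside Sox6, a factor that acts late in red cell maturation (10 and 12 fragments, 68.4 kb from an end), one 35.8 kb from Myb, a progenitor factor whose upstream stretch holds known enhancers (9 and 17), and one inside Ldb1, the bridging protein of the GATA1 and TAL1 complex (12 and 11). Add2, beta-adducin of the membrane skeleton, held a member with 14 in each library. The other lists are short and do not hold every gene of their kind. A list of 24 lamina and nuclear envelope genes had 2 members, in Lmnb1 and near Lbr, 0.580% of the class against 0.248% of all regions. A list of 32 autophagy genes had 2, at Wipi1 and Ulk1 (12 and 30), against 0.366% of all regions. A list of 46 cell-cycle genes had 2, at Cdca7 and E2f3 (24 and 32), close to its 0.549% of all regions, and members at Ccnj, Anapc7, Cdk16, Cdc7 and Aurkb fell outside that list. A list of 31 haem, globin and iron genes had 0 of 345 members, against 0.281% of all regions. Outside it lay a gene-edge member at Abcb6, a porphyrin transporter (13 in each), and a distal one near Tmprss6, a regulator of hepcidin (13 and 10), both named after their values were seen. The mast cell and lymphoid lists had 0 members, against 6 and 3 of all 15313 regions. A list of 22 granulocyte and macrophage genes had 2 members, at Fcgr3 and Cebpb, and one of 17 megakaryocyte genes had 1, near Mmrn1 (9 and 14), each list against 14 of all regions.

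Further distal members were likewise named by hand after their values were seen, with no count over all regions. Cytoskeletal examples were Enah, an actin-elongating protein (10 and 11), Msn, moesin (15 and 12), Macf1 (9 and 11), the Rac activator Tiam1 (8 and 10) and Dock9 (14 and 12). Signalling examples were Inpp5d, the phosphatase SHIP1 (13 and 15), Il5ra (10 and 11), Gna11 (15 and 17) and Rps6ka1 (8 and 9).

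Members seldom lay together. Within 50 kb of another member were 13 of 345, in 6 clusters. The tightest paired a region 24.3 kb from Lbr with one 22.8 kb from Enah, 6.37 kb apart, and a distal with a gene-edge region of Rac2, 6.03 kb apart. Trnau1ap and its neighbour Phactr4 held 3 members, Mbnl2 and Azin1 held 2 each, and Styk1 and Ybx3 1 each in a joint cluster. Chromosome 11 held 36 members, 3.39% of its regions, chromosome 14 held 3.60% and chromosome 3 held 1.17%.

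Place in the genome. The share at gene edges, which the rule did not use, was 39.7% (95% exact interval 34.5 to 45.1) for wild-type-only regions. It was 19.5% (15.8 to 23.7) for knockout-only regions, 29.7% (26.9 to 32.7) for those called in 1 library of each genotype, 68.4% among regions of all 4 libraries and 50.6% over all regions. Strength moved with this share. Among regions in the weakest 25% of the wild-type 1 h list, 37.1% (31.1 to 43.4) of members were at a gene edge, against 32.3% (29.7 to 35.0) of other regions there that were not called in all 4 libraries. In the weakest 25% of the 2 h list the shares were 38.2% (31.9 to 44.8) and 28.3% (26.2 to 30.5). These other regions include ones called in 1 library only, whereas each member was called in both wild-type libraries. For knockout-only regions, the weakest 25% of the knockout 1 h and 2 h lists gave 22.0% against 24.6% and 21.6% against 28.2%. In these weakest bands the members' interval overlapped that of the other regions in the wild-type 1 h list and not in the 2 h list. Between percentiles 25 and 50 the shares were 48.3% (37.6 to 59.2) of members against 37.8% (33.7 to 41.9) of other regions at 1 h, and 41.4% (31.6 to 51.8) against 38.6% (35.4 to 41.8) at 2 h, and both pairs of intervals overlapped. With a −log10 q of at least 5 in both wild-type libraries the share was 48.1%, and with gene edges of 500 bp it was 33.3%, against 14.2% for knockout-only regions. Without the wild-type 1 h library it was 31.2%, against 21.3% of knockout-only regions, and without the wild-type 2 h library 32.3% against 26.2%. Without the knockout 1 h and 2 h libraries the shares were 42.3% against 20.1% and 41.9% against 17.7%. The size of this contrast thus changed with the library left out.

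**Figure D3:**
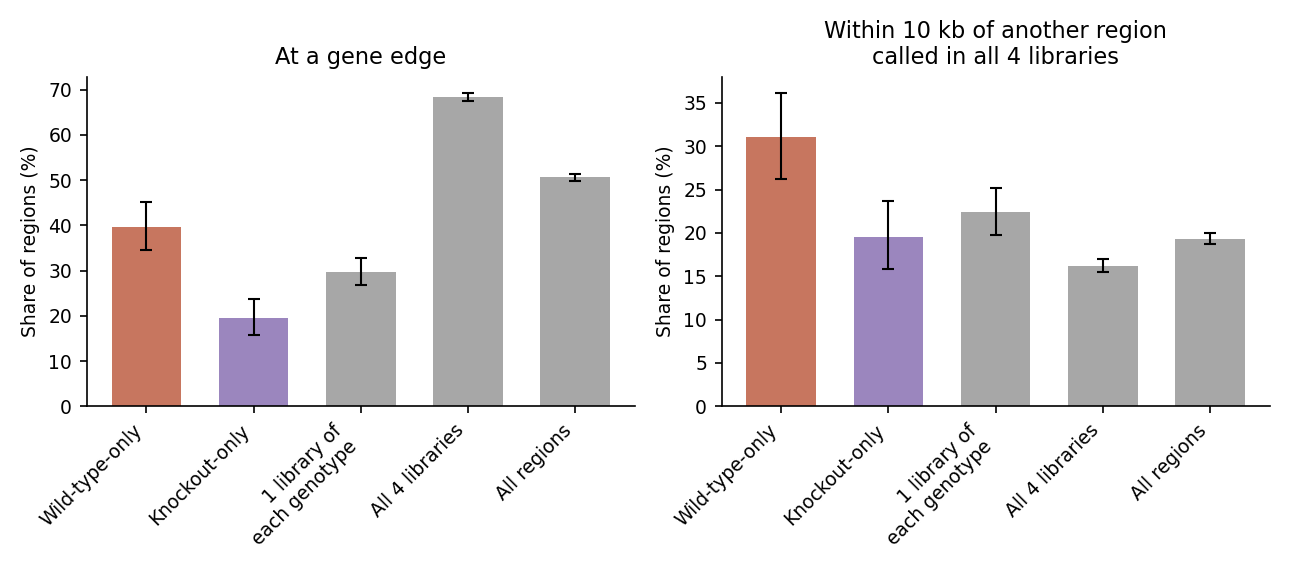
Share of regions (vertical axis, %) at a gene edge (left) and within 10 kb of another region called in all 4 libraries (right), for 345 wild-type-only regions, 415 knockout-only regions, 965 regions called in 1 library of each genotype, 8698 called in all 4 libraries and all 15313; lines are 95% exact intervals. Wild-type-only regions stand at 39.7% and 31.0%, against 19.5% and 19.5% for knockout-only regions.

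The gap to the nearest region called in all 4 libraries was not used by the rule either. Its median for members was 23.6 kb (95% order-statistic interval 18 to 29.3), against 35.0 kb (28.8 to 42.1) for knockout-only regions, 29.1 kb (26.4 to 31.4) for regions of 1 library of each genotype and 36.1 kb between neighbouring regions of all 4 libraries. The members' interval lay apart from that between regions of all 4 libraries, and overlapped those of the other classes. For gene-edge and distal members the medians were 25.6 kb (15.6 to 33.2) and 23.0 kb (17.9 to 30.5), with overlapping intervals. Within 10 kb of a shared region were 107 members (31.0%, 26.2 to 36.2), against 19.5% (15.8 to 23.7) of knockout-only regions and 19.3% of all regions. Within 1 kb were 35 members (10.1%, 7.17 to 13.8), of them 21 at gene edges and 14 distal, against 3.61% of knockout-only and 6.11% of regions of 1 library of each genotype. A peak of a knockout library stood within 500 bp of 40 members, 23 at gene edges and 17 distal.

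Strength moved with this distance too. In the weakest 25% of the wild-type 1 h list, 13.3% of members and 7.88% of other regions not called in all 4 libraries lay within 1 kb of a shared region. In the 2 h list these were 13.3% and 8.39%. Here too the other regions include ones called in 1 library only. Regions called in all 4 libraries stood at 9.50% and 11.3% in the same bands. Between percentiles 25 and 50 the shares were 2.25% of members against 2.34% of other regions at 1 h, and 4.04% against 2.38% at 2 h. Within 10 kb, the weakest 25% at 1 h gave 35.1% of members, 28.5% of other regions and 32.7% of regions called in all 4 libraries. At 2 h these were 35.2%, 29.2% and 36.5%. Between percentiles 25 and 50 they were 22.5%, 17.6% and 19.7% at 1 h, and 24.2%, 16.5% and 20.1% at 2 h. The closest cases were at Midn, 28 bp away, Arl4d, 32 bp, Tspan32, 45 bp, and Ybx3, a cold-shock-domain RNA-binding protein, 84 bp. These members lie directly beside a region that was called in every library. At the other extreme the member near Mmrn1, multimerin 1 of platelets, lay 1792 kb from any shared region.

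**Figure D4:**
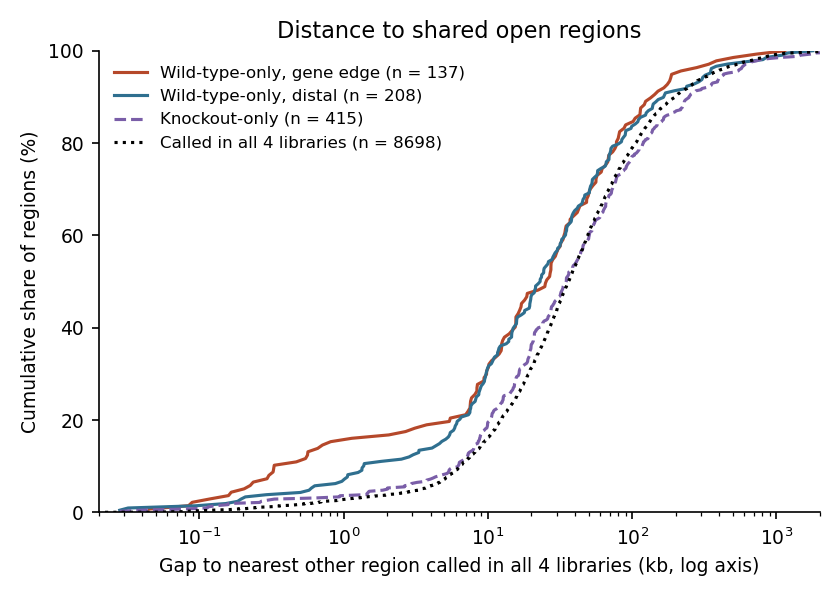
Cumulative share (vertical axis, %) of regions by the gap to the nearest other region called in all 4 libraries (horizontal axis, kb, log axis), for wild-type-only regions at gene edges (red) and distal (blue), knockout-only regions (purple dashes) and the regions called in all 4 libraries (black dots). At 1 kb the gene-edge members stand at 15.3%, the distal members at 6.73%, and the knockout-only regions at 3.61%.

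Shared regions beside the members. Whether accessibility around the members differed could be tested at neighbouring regions that all 4 libraries had called, since these did not choose the members. Neighbours without a call in a knockout library are left out by this choice, so the test could not see losses that removed the call. Their pileups, recovered from the deposited values, were put on the scale of log2 of pileup plus 1 with each library centred at its median and compared with limma over 8697 regions. Adjusted by Benjamini-Hochberg, 0 of 8697 regions passed at 0.05 (0.0% called, smallest adjusted p = 0.213), and 757 (8.7%) had an unadjusted p below 0.05. Of the 120 shared regions within 10 kb of a member, 0 passed (smallest adjusted p = 0.350), and 18 (15.0%) had an unadjusted p below 0.05, 10 of them lower and 8 higher in knockout. The lower ones were 8.33% of the 120, against 3.68% of all, and the higher ones were 8 of 120, against 437 of 8697. The median difference, knockout minus wild type, was 0.02 for these 120 and 0.02 for all 8697. Over all 8697 regions, more of those below 0.05 were higher than lower in every fit with 1 library left out. Among the 120, the direction of the counts turned with single libraries. Without the knockout 1 h library 3 were lower and 7 higher, and without the knockout 2 h library 8 were lower and 12 higher. Without the wild-type 1 h library 6 were lower and 5 higher, and without the wild-type 2 h library 3 were lower and 10 higher.

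When pileups were scaled by the lowest background of each library instead, the median of all regions moved to −0.21. Then 24 of the 120 had an unadjusted p below 0.05, 20 lower and 4 higher in knockout, 0 of them after adjustment. Over all 8697 regions 1172 were below 0.05, 1084 lower and 88 higher, so the lean among the 120 was shared by all regions. The count of 8697 that passed was then 70, of which 65 were lower. Both knockout libraries lay below both wild-type libraries at 31 of the 120 (25.8%), against 17.3% of all shared regions, and above both at 25 (20.8%), against 21.4%. Within 1 kb of a member, 8 of 36 were below and 8 above. With 2 libraries a genotype this test can miss real differences, and its reach on these data was not measured. In simulated pileups it called 1 of 50 halved regions and 13 of 50 lowered to 0.25 of their level. It also called 1 of 50 doubled regions and 23 of 50 raised 4-fold. The spread between simulated libraries was a fixed setting not taken from these data, so these counts hold for that setting only. The simulated regions did not have to keep a peak call.

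Among the 3 smallest p-values in each direction, the lower ones in knockout were beside Plekhg3, Rcc2 and Lbr. The shared region at Rcc2, a regulator of chromosome condensation in mitosis, lies 0.713 kb from the gene-edge member (chromosome 4, 140702309 to 140703012) and had 33 fragments in each knockout library, against 55 and 50 in the wild-type 1 h and 2 h libraries. The knockout values were below both wild-type values, with a log2 difference of −0.57 (SE 0.20; limma adjusted p = 0.461). The region 5.43 kb from the member near Lbr, the lamin B receptor, had 24 and 21 in knockout against 28 and 46 in wild type, a log2 difference of −0.57 (SE 0.21; limma adjusted p = 0.485). That beside Plekhg3, a guanine nucleotide exchange factor, had 12 and 13 against 18 and 25, a log2 difference of −0.64 (SE 0.20; limma adjusted p = 0.387). None of the 3 passed after adjustment.

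Higher in knockout were shared regions beside members in Add2, Cradd and Ibtk. That in Add2 (chromosome 6, 86103494 to 86104009) had 23 and 25 fragments in knockout against 10 and 16 in wild type, a log2 difference of 0.95 (SE 0.21; limma adjusted p = 0.350). It lay 8.95 kb from a member in the same gene that no knockout library called, and a second shared region, 1.06 kb from that member, ran the other way. That one had 12 and 10 fragments in knockout against 18 and 14 in wild type, a log2 difference of −0.42 (SE 0.22; limma adjusted p = 0.637). The region beside Cradd, an adaptor of caspase 2, had 31 and 28 against 15 and 21, a log2 difference of 0.78 (SE 0.19; limma adjusted p = 0.363). That at Ibtk, a binding partner of Bruton's kinase, stood 0.208 kb from its distal member and had 17 and 25 against 9 and 14, a log2 difference of 0.90 (SE 0.26; limma adjusted p = 0.375). All 6 kept their direction in the alternative fits that included them, but the size of 2 rested on 1 library. The difference near Lbr was −0.33 without the wild-type 2 h library, and that at Ibtk was 0.55 without the knockout 2 h library.

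**Figure D5:**
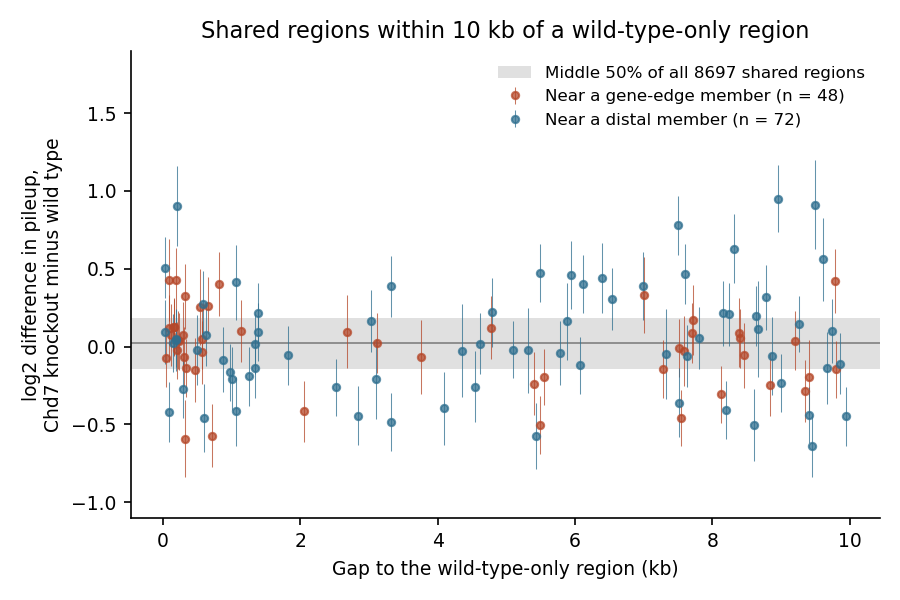
Difference in log2 pileup, Chd7 knockout minus wild type (vertical axis), of the 120 shared regions within 10 kb of a wild-type-only region, by their gap to it (horizontal axis, kb), near gene-edge (red) and distal (blue) members; lines are limma standard errors and the grey band is the middle 50% of all 8697 shared regions. Points lie on both sides of 0, from −0.64 beside Plekhg3 to 0.95 in Add2.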

How the data were processed

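ATAC-seq peak lists of 2 Chd7-/- and 2 wild-type G1ER libraries were used, grouped by title; the members and gene lists were chosen with earlier results of these data known. The tools listed per the submitters' processing notes, without their roles, are Bowtie2 2.2.1 and MACS2 2.1.0. Calling threshold, control, read shift and duplicate handling were not stated there, and deposited peak names give GRCm38. The lists were called per library. The authors' deposited score is a whole number near 10 times −log10 q. The fold enrichment is the authors' ratio of pileup to background, and the −log10 p and −log10 q are deposited by the authors too.

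Used were 12431 and 11361 knockout and 11074 and 12033 wild-type peaks (1 h and 2 h). Total reads were unknown. The lowest background, a rough guide to depth, was 1.04 and 1.01 in knockout and 0.787 and 1.08 in wild type. By this guide the wild-type 1 h library was the shallowest, but depth itself is not known. The median summit pileup was 19 fragments both there and in the knockout 2 h library. Left out were 2 mitochondrial peaks per library and those on chromosome Y. Overlapping or touching peaks were merged. Pileups were recovered as whole numbers from 2 deposited values, the fold enrichment (pileup and background each with 1 added) and the p under a Poisson law, to within 0.001 in −log10 p, for all but 1 peak per library. A caller that rescaled pileups would break this step. The test was limma 3.58.1 (R 4.3.3) on log2 of pileup plus 1 over the 8697 of 8698 shared regions with a pileup in every library, 1 region dropped. An exact test of 2 libraries against 2 cannot go below p = 0.333.

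Gene positions came from a RefSeq table for GRCm38.p6 without strand. Starts and sequences came from RefSeq promoter windows, which matched 122 of 162 genes at gene-edge members. Shares carry exact (Clopper-Pearson) 95% intervals, which cover counting only. Named were the 12 strongest gene-edge and linked distal members, the strongest without a gene end within 100 kb, members of the gene lists, clusters, the border cases and the neighbours with the smallest p. Members named by function were added after seeing values. Alternatives were stricter −log10 q, lists of equal length, summit windows, a wider knockout gap, other gene edges, other scaling, pseudocount 5, a mean pileup of 20, leaving out each library, and a block for the replicate number. On simulated data pileups were recovered in 100% of 2000 peaks and calls in 100% of 300 merged regions. Python 3.11.15 ran the remaining steps, with scipy 1.17.1, pandas 2.3.3 and numpy 2.4.6.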

Additional observations from a re-analysis of the deposited data

Results flagged for a closer look

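The number of peaks on chromosomes 1 to 19 and X stood out because the genotypes differed in opposite directions at the labelled times. The knockout library had 1357 more peaks than the wild-type library at 1 h, and the difference was −672 at 2 h. The difference between the times was not tested, with 1 library of each genotype at each time. Peaks on chromosome Y, which are outside the regions described, numbered 12 and 15 in the knockout libraries against 10 and 10 in the wild-type libraries.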

How the results depend on the processing

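The number of wild-type-only regions was 345 and fell to 158 with a −log10 q of at least 5 in both wild-type libraries. It ranged from 618 to 1235 with 1 library left out. The gene-edge share of 39.7% was 47.3% when all peaks in the 4 libraries had to reach 5, 48.1% with that threshold in wild type alone and 33.3% with gene edges of 500 bp, and it ranged from 31.2% to 42.3% with 1 library left out. Chosen after seeing the data, leaving out members within 1 kb of a shared region gave 37.4%. The median gap to shared regions of 23.6 kb was 31.7 kb with that threshold in all 4 and 23.4 to 27.3 kb with 1 library left out. With the threshold in all 4 a member may hold a dropped knockout peak, and 158 of its 387 regions overlapped an original member. Of shared regions that passed in pileup, limma gave 0, against 70 with depth scaling. Replicate numbers did not pair the samples: deviations of same-numbered libraries correlated at 0.00182 over 8697 regions, and the replicate block gave 2 regions. None of the 120 neighbours passed in any of the fits run. Depth limits all of this, since a missing call is not a measured absence, and a median member held 11 to 14 fragments.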
